A study of Oryzias latipes with 84 samples.

Results

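The genes described here are crhbp (ENSORLG00000002228), oacyl (ENSORLG00000005993), pcsk2 (ENSORLG00000006472) and pax7 (ENSORLG00000004269), which the paper names as markers of the melanotropes of the medaka pituitary. They were taken by identifier from the deposited table of read counts, where all 4 were found among 24364 entries. Its 84 libraries each hold the RNA of the whole pituitary of 1 fish, of which 68 were females and 16 males. Every fish was a medaka (Oryzias latipes) of the d-rR lhb:GFP strain, in which the promoter of lhb, a gonadotropin subunit gene, drives a green fluorescent protein, and no fish without this transgene was in the series. The females fell into 11 groups of labelled age: 32 to 35 days post fertilization (dpf, n = 4), 37 to 39 (n = 4), 44 to 49 (n = 8), 53 (n = 5), 58 to 59 (n = 4), 64 to 74 (n = 10), 79 to 92 (n = 10), 96 to 111 (n = 11), 131 to 179 (n = 6), 249 to 277 (n = 3) and 375 dpf (n = 3). The males were of 38, 57, 70 and 134 dpf (n = 4 each). For 3 of the males labelled 134 dpf, medaka137, medaka138 and medaka139, the paper's methods state younger ages, and the labels were followed. Body length ranged from 9.5 to 29 mm. No fish was treated, and fish of 1 age could share an egg collection date and a tank, so that age, clutch and tank cannot be told apart.

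Melanotropes lie in the pars intermedia of the fish pituitary and secrete alpha-melanocyte stimulating hormone, which disperses pigment in the skin. They cut the hormone from pro-opiomelanocortin, the product of pomca, a precursor that corticotropes process into adrenocorticotropic hormone instead. Among the members, pax7 encodes a transcription factor that in the mouse opens the melanotrope gene program, pcsk2 the prohormone convertase that makes the cuts after the first one, and crhbp a secreted protein that binds corticotropin-releasing hormone. The product of oacyl belongs to a family of acyltransferases. In the fish pituitary alpha-melanocyte stimulating hormone is known for background adaptation and has been linked to appetite and stress.

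The libraries held 2424546 to 9348785 counts (median 6493890). The 8 pituitary hormone genes, pomca among them, took 1.48% to 38.1% of the counts. Both pomca and prl, the prolactin gene, were detected in every library. In 4 libraries the share of these 8 genes was under 10%. These were female medaka7 (79 dpf, 1.48%), female medaka26 (66 dpf, 9.06%), male medaka126 (38 dpf, 5.60%) and male medaka135 (70 dpf, 9.00%), and results that rest on them are given with and without them. Only medaka7 and medaka126 lay well below the 10% line, and medaka119, a female of 131 to 179 dpf, lay just above it. The share counts pomca, which melanotropes express, so the line is not independent of the melanotrope genes. Levels are given in CPM, a gene's share of all counts of its library on a common scale, not corrected for gene length, so levels of different genes are not compared as amounts of RNA. In a whole pituitary, fewer melanotropes and less RNA per melanotrope cannot be told apart.

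All 4 genes were detected in all 84 libraries. Over all fish crhbp ran from 54.1 to 972 CPM with a median of 247.8 CPM, and oacyl from 125.6 to 2176 CPM with a median of 795 CPM. The range of pcsk2 was 113 to 3632 CPM around a median of 1310 CPM, and that of pax7 was 10.4 to 89.8 CPM around a median of 30.1 CPM. The member with the fewest counts, pax7, also varied least between fish, with a standard deviation of 0.482 in log2(CPM + 1) over the females, against 0.728 for crhbp, 0.740 for oacyl and 0.649 for pcsk2. Without medaka7 and medaka26 pax7 was close to pcsk2, at 0.430 against 0.462, with 0.686 for crhbp and 0.671 for oacyl. In 80 of the 84 libraries the order by counts was pcsk2, oacyl, crhbp and pax7. In the other 4, oacyl stood above pcsk2, and in 1 of these pax7 also stood above crhbp. Ranked by CPM among the 24364 entries, the median place was 38 for pcsk2, 62 for oacyl, 342 for crhbp and 5792 for pax7.

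Across the 15 groups, crhbp was lowest in the females of 131 to 179 dpf, at 143 ± 33.1 CPM (SD, n = 6). It was highest in the males of 134 dpf, at 683 ± 202 CPM (SD, n = 4). The gap from these males to the next group down, the females of 32 to 35 dpf at 394 ± 232 CPM (SD, n = 4), was the only one of the 14 gaps between neighbours in the order of means that exceeded the larger SD of the pair. For oacyl the same groups stood at the ends, with 394 ± 75.4 CPM (SD, n = 6) in the females of 131 to 179 dpf and 1270 ± 387 CPM (SD, n = 4) in the males of 134 dpf, and no neighbours differed by more than their spread. For pcsk2 the females of 32 to 35 dpf (1820 ± 1231 CPM, SD, n = 4) and the males of 134 dpf (1780 ± 562 CPM, SD, n = 4) were at the top and the females of 131 to 179 dpf (896 ± 244 CPM, SD, n = 6) at the bottom, again with no gap above the spread. The order of pax7 differed from these. Its highest mean was in the females of 32 to 35 dpf (43.4 ± 22.5 CPM, SD, n = 4), its lowest in the females of 375 dpf (22.3 ± 3.49 CPM, SD, n = 3), and none of its 14 gaps exceeded the larger SD.

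**Figure D1:**
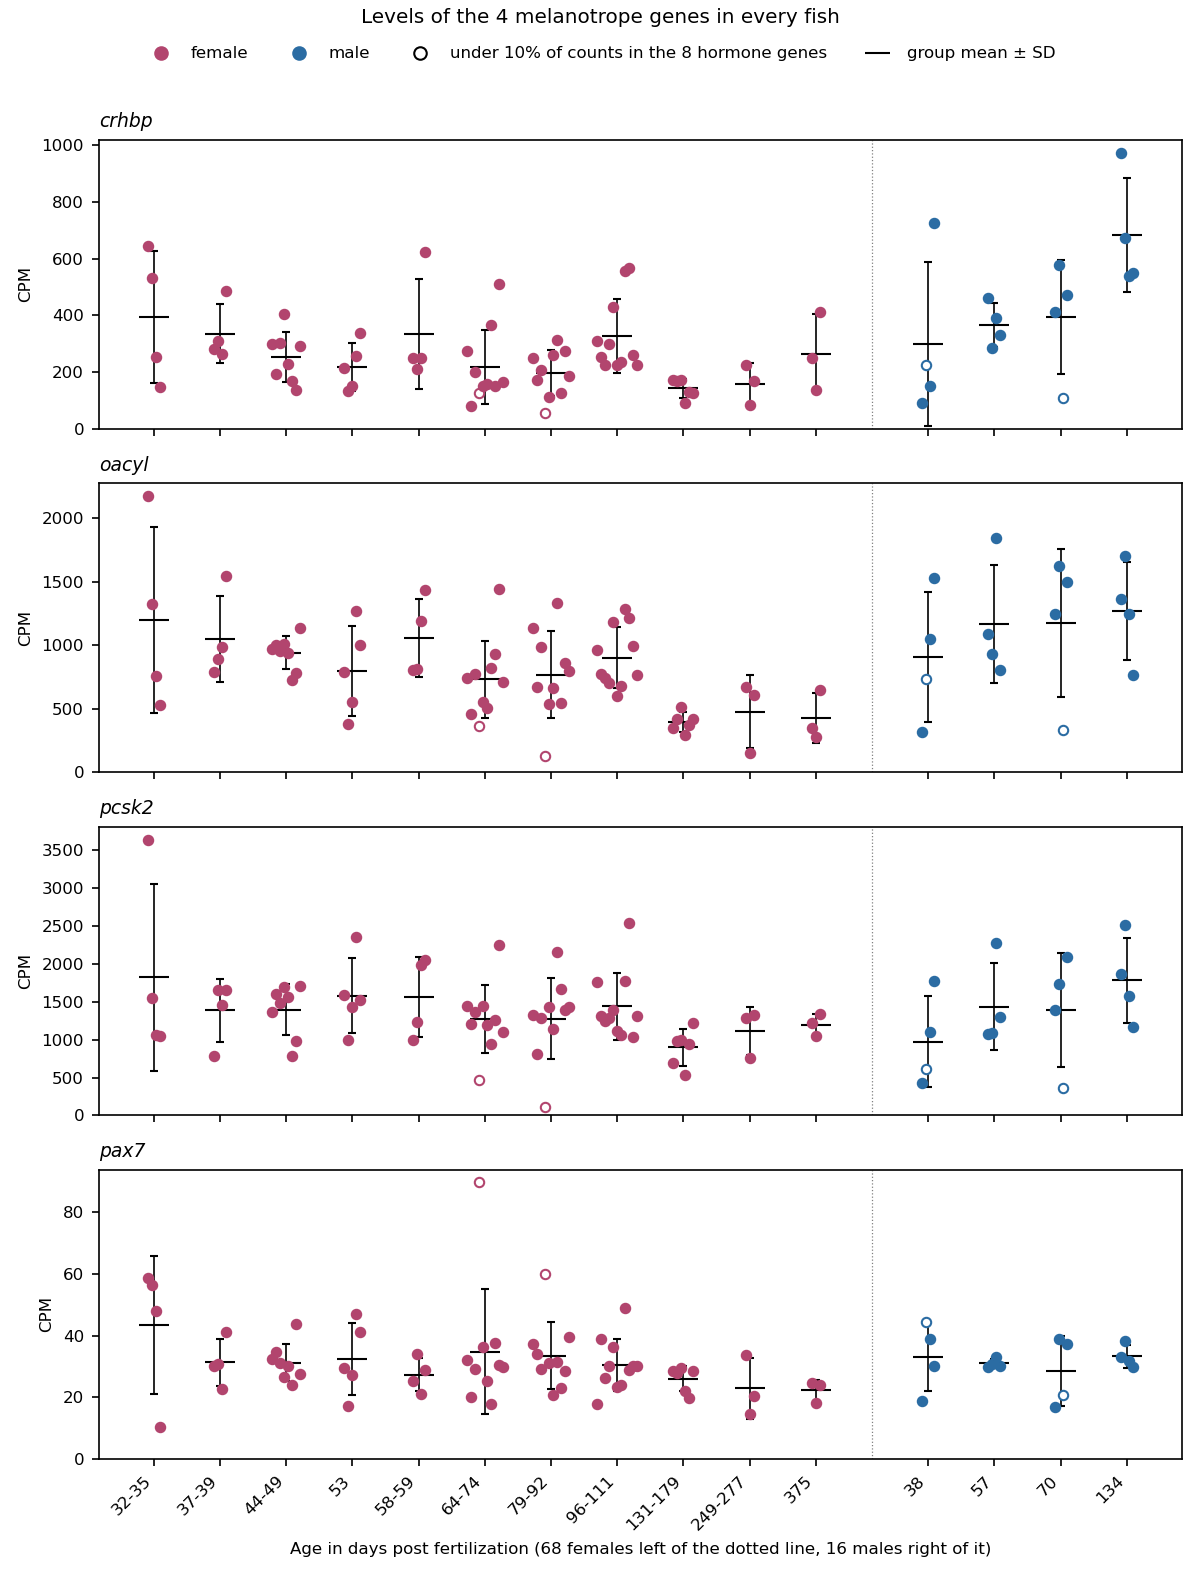
CPM (y axis, from 0) of crhbp, oacyl, pcsk2 and pax7 in each of the 84 fish, by age group in days post fertilization, females left and males right, with the group mean and SD as black bars and the 4 libraries with under 10% of counts in hormone genes as open circles. The females of 131 to 179 dpf sit at 90.8 to 173 CPM of crhbp, below the males of 134 dpf at 539 to 972 CPM, and the highest pax7 values of the females of 64 to 74 and of 79 to 92 dpf are open circles.

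The sexes were compared at the 4 ages where the labelled ages of both came closest. The differences are log2 fold changes, females over males, on counts scaled by trimmed mean of M-values (TMM) factors in edgeR, and a gene was called at an adjusted p under 0.05 over all genes tested. In juveniles, females of 37 to 39 dpf had 264, 279, 309 and 487 CPM of crhbp, against 91.8, 152, 224 and 727 CPM in males of 38 dpf. The males at 91.8, 152 and 224 CPM lay below all females, and medaka128, at 727 CPM, lay above all of them. None of the 4 members was called at this age, with log2 fold changes of -0.05 ± 0.65 for crhbp, 0.08 ± 0.48 for oacyl, 0.33 ± 0.48 for pcsk2 and -0.12 ± 0.30 for pax7 (standard errors, adjusted p from 0.797 to 0.981). Of the 17562 genes tested here edgeR called 0%, although 2209 had an unadjusted p under 0.05. The count with DESeq2 was 383. Leaving out the male with the highest level, medaka128, moved crhbp to 1.13 (adjusted p = 0.163).

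At 58 to 59 dpf crhbp was at 211, 248, 249.9 and 624 CPM in females, against 283, 330.3, 389 and 462 CPM in males of 57 dpf. Of the females, 3 lay below all males and medaka76 above all of them, so the groups overlapped. The values of pax7 were 21.2, 25.3, 28.7 and 34 CPM in females and 29.8, 30.1, 30.9 and 33.2 CPM in males, where 3 females again lay below all males. No member was called, with log2 fold changes of -0.32 ± 0.37 for crhbp, -0.33 ± 0.32 for oacyl, -0.04 ± 0.33 for pcsk2 and -0.45 ± 0.20 for pax7 (standard errors, adjusted p from 0.518 to 0.968), and 0.0325% of the 18464 genes tested were called.

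At 64 to 74 dpf oacyl was called lower in females, and how many members passed depended on the libraries with few hormone counts. Levels of crhbp ran from 79.9 through a median of 161 to 509 CPM in the 10 females, against 108.8, 413, 472 and 577 CPM in males of 70 dpf. Levels of oacyl ran from 362 through 726 to 1441 CPM in the females, against 328, 1247, 1501 and 1624 CPM in the males. In both genes the low male was medaka135, a library with few hormone counts, and the other 3 males lay above 9 of the 10 females. edgeR called oacyl lower (log2 fold change -1.20 ± 0.41, adjusted p = 0.0487), while crhbp (-1.35 ± 0.47, adjusted p = 0.0564), pcsk2 (-0.68 ± 0.39, adjusted p = 0.226) and pax7 (-0.31 ± 0.33, adjusted p = 0.516) did not pass. This was 1 member of 4, where 7.42% of the 20333 genes tested were called lower in females. DESeq2 called 2 of the 4, crhbp and oacyl (adjusted p = 0.0261 and 0.0201), with 8.23% of all genes lower. In edgeR the call of oacyl ended without male medaka133 (adjusted p = 0.0926), medaka134 (0.158) or medaka136 (0.1). Without medaka135 crhbp and pcsk2 were called as well (adjusted p = 0.0154 and 0.0453), in a fit that called 967 of 20722 genes lower in females.

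Without medaka26 and medaka135 all 4 members were called lower in females of this age, with log2 fold changes of -1.58 for crhbp (adjusted p = 0.0207), -1.42 for oacyl (0.00539), -0.89 for pcsk2 (0.0251) and -0.67 for pax7 (0.0388). The share of all genes called lower in that fit was 9.14%. Both fish left out lay close under the 10% line, so these calls rest on where that line was drawn. The line also counts pomca, and the choice of fish is thus not independent of the members. CPM without TMM factors was compared with all 10 females and 4 males only. There the median of all genes with at least 1 CPM was itself 0.61 higher in females on the log2 scale. With all these libraries pcsk2 and pax7 were 0.04 and 0.23 higher, so the direction of both held there only relative to the other genes. On the same scale crhbp was at -0.81 and oacyl at -0.56, and neither passed (two-sided exact permutation test, p = 0.148 and 0.22). With all libraries and body length as a covariate none of the 4 was called. The females measured 10 to 20 mm and the males 17.5 to 18.5 mm. The libraries also differed in complexity. With every library thinned to the same total, 21453 to 22734 genes were detected in these females and 17938 to 20698 in the males, without overlap. The part of this difference in the calls was not tested. CD74, a gene of antigen-presenting cells, was the only one of 13 genes of other cells called here (lower in females, log2 fold change -2.89, adjusted p = 0.00774), at 243 to 763 CPM in females (median 371 CPM), against 329, 402, 500.1 and 6436 CPM in males. The high male was medaka135, a library with few hormone counts, and the other 3 males lay within the range of the females. The part of CD74 in the result was not tested.

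With all libraries in the fits, the adult differences were the largest of the 4 ages for all 4 members. Most of the females of 131 to 179 dpf were labelled older than the males of 134 dpf. Sex and age thus cannot be fully told apart in this comparison. crhbp was at 90.8, 125.4, 128.7, 169, 169.7 and 173 CPM in the 6 females of 131 to 179 dpf, against 539, 549, 674 and 972 CPM in the 4 males of 134 dpf. oacyl was at 296, 347, 370.3, 417, 421 and 515 CPM in these females, against 768, 1244, 1365 and 1703 CPM in the males. In both genes every female lay below every male. For pcsk2 the females had 534, 695, 946, 983, 996 and 1221 CPM, against 1169, 1580, 1865 and 2507 CPM in the males, with 1 female above the lowest male. For pax7 the females had 19.7, 22.1, 28.0, 28.4, 28.6 and 29.5 CPM and the males 29.8, 31.8, 32.9 and 38.4 CPM, which did not overlap but nearly met.

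edgeR called 3 of the 4 members lower in adult females. The log2 fold changes were -2.61 ± 0.26 for crhbp (adjusted p = 0.000174), -2.04 ± 0.24 for oacyl (adjusted p = 0.000692) and -1.35 ± 0.25 for pcsk2 (adjusted p = 0.0163, all with standard errors), while pax7 did not pass (-0.68 ± 0.20, adjusted p = 0.181). Of all 19830 genes tested, 0.439% were called lower. In CPM, all females lay below all males in 3 members (crhbp, oacyl and pax7) and in 0.413% of the 21085 genes with at least 1 CPM, and for each of these 3 the exact permutation test, two-sided and not adjusted, gave the smallest p that 6 against 4 fish allow (p = 0.00952). For pcsk2 it gave p = 0.019. On this CPM scale the median of those genes was itself 0.34 higher in females in log2. The differences of the members were smaller there than in edgeR, at -2.25 for crhbp, -1.65 for oacyl, -0.99 for pcsk2 and -0.35 for pax7. pomca moved with them, at 20972 to 39792 CPM in females and 77404 to 201081 CPM in males (log2 fold change -2.50 ± 0.31, adjusted p = 0.0011 in edgeR).

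The call of pcsk2 ended without male medaka137 (adjusted p = 0.0669) or medaka138 (adjusted p = 0.103). The females were 21 to 23.5 mm long and the males 22 to 28 mm, and with body length as a covariate only crhbp was called (-2.71, adjusted p = 0.0295). Of the 13 genes of other cells, prl and smtla, the genes of prolactin and somatolactin, were also lower in adult females (log2 fold changes of -1.31 and -1.41, adjusted p = 0.00786 and 0.0273), and tshba and cga, subunit genes of thyrotropin and the glycoprotein hormones, were higher (1.47 and 1.17, adjusted p = 0.0256 and 0.0367, all in edgeR). The hormone genes other than pomca took 8.74% to 18.3% of counts in these females and 13.2% to 21.7% in the males. Their part in the result was not tested. At equal depth 21621 to 22747 genes were detected in the adult females and 20702 to 22339 in the males, and the part of this was not tested either.

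**Figure D2:**
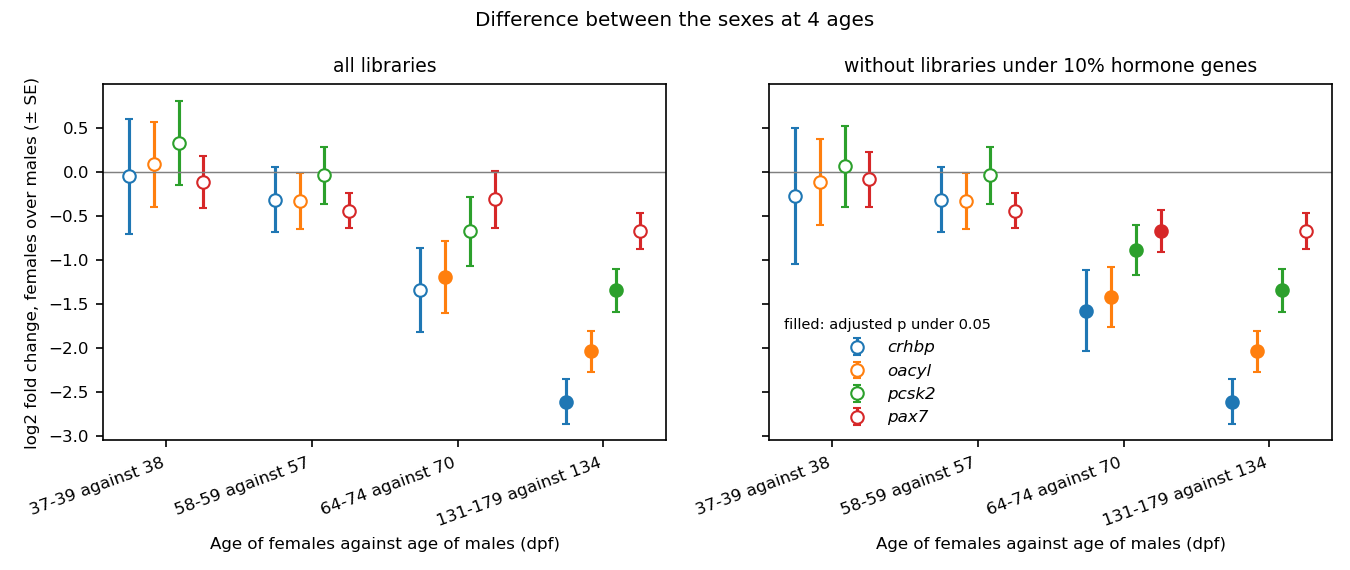
Log2 fold change, females over males, with its standard error from edgeR (y axis), of the 4 genes at the 4 ages (x axis, females against males in dpf), with all libraries (left) and without those under 10% hormone genes (right, where the comparisons at 58 to 59 and 131 to 179 dpf hold no such library and are drawn unchanged). Filled points have an adjusted p under 0.05: crhbp, oacyl and pcsk2 at 131 to 179 dpf on both sides, oacyl at 64 to 74 dpf on the left, and all 4 genes at 64 to 74 dpf on the right.

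In males no member was called between 134 and 38 dpf or between neighbouring ages, and other pairs of ages were not tested. crhbp had 91.8, 152, 224 and 727 CPM at 38 dpf, 283, 330.3, 389 and 462 CPM at 57 dpf, 108.8, 413, 472 and 577 CPM at 70 dpf, and 539, 549, 674 and 972 CPM at 134 dpf. At 38 dpf medaka128, and at 70 dpf medaka134, lay above the lowest male of 134 dpf. The groups thus overlapped for crhbp between 134 and 38 and between 134 and 70 dpf. Of all genes with at least 1 CPM, 16.2% and 13.5% did not overlap there. For 134 against 57 dpf this share was not computed. Between 134 and 38 dpf the log2 fold change was 1.00 ± 0.62 for crhbp (adjusted p = 0.314), 0.36 ± 0.51 for oacyl (0.684), 0.72 ± 0.52 for pcsk2 (0.386) and -0.04 ± 0.27 for pax7 (0.939), all in edgeR, where 2.34% of the 19502 genes tested were called. Without medaka128 crhbp was called between these ages (2.22, adjusted p = 0.0267), in a fit that called 771 of 20105 genes, 274 of them higher. From 57 against 38, 70 against 57 and 134 against 70 dpf, the members' log2 fold changes lay between -0.09 (oacyl, 134 against 70 dpf) and 0.61 (crhbp, 134 against 70 dpf), and edgeR called 0% of all genes in each of these steps, with 1979, 1447 and 3776 genes at an unadjusted p under 0.05, while DESeq2 called 59, 5 and 1109.

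An interaction term tested whether females and males differed in their change between the youngest shared age and adulthood, over the females of 131 to 179 and of 37 to 39 dpf and the males of 134 and 38 dpf. The change in females minus that in males was -2.51 ± 0.74 for crhbp, -2.08 ± 0.54 for oacyl, -1.62 ± 0.54 for pcsk2 and -0.51 ± 0.36 for pax7 on the log2 scale (standard errors). None passed (adjusted p = 0.156, 0.111, 0.191 and 0.573), and edgeR called 0% of the 20501 genes, with 2710 at an unadjusted p under 0.05. DESeq2 called crhbp and oacyl (adjusted p = 0.0203 and 0.0157), with 1.82% of all genes called in this direction. Without male medaka128, edgeR called crhbp (-3.76, adjusted p = 0.00097), oacyl (-2.67, adjusted p = 0.0202) and pcsk2 (-2.31, adjusted p = 0.036), in a fit that called 0.491% of all genes in this direction. Without female medaka14, oacyl was called (-2.16, adjusted p = 0.0485), in a fit that called 485 of 20771 genes, 460 of them in this direction.

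In females, longer and older fish had lower levels of all 4 genes when each covariate was taken alone. Per mm of body length the log2 change was -0.07 ± 0.02 for crhbp (adjusted p = 0.00381), -0.10 ± 0.02 for oacyl (1.59e-05), -0.04 ± 0.02 for pcsk2 (0.0222) and -0.06 ± 0.01 for pax7 (4.33e-07), and 18.1% of all genes were called lower with length in that fit. Per doubling of age it was -0.27 for crhbp (adjusted p = 0.0464), -0.49 for oacyl (0.000102), -0.24 for pcsk2 (0.0261) and -0.27 for pax7 (0.000909), with 16% of all genes called lower with age. Length and age rose together, and in the fit with both only pax7 was called, with -0.10 ± 0.02 per mm (adjusted p = 0.000444), where 4.72% of 21532 genes were called lower with length. The changes per mm of crhbp (-0.10 ± 0.04, adjusted p = 0.119), oacyl (-0.07 ± 0.03, 0.243) and pcsk2 (-0.03 ± 0.03, 0.743) did not pass there. For age in this fit no member was called (adjusted p from 0.43 to 0.802), with 1.8% of all genes called.

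The call of pax7 with body length rested on 2 libraries. The highest pax7 level of all fish, 89.8 CPM, was that of medaka26, a female of 66 dpf and 10 mm, and the next, 60.1 CPM, that of medaka7, a female of 79 dpf and 10.5 mm, both with few hormone counts. Without them the change was -0.07 ± 0.02 per mm and was not called (adjusted p = 0.239), where 0.0646% of all genes were called lower. Within the 11 age groups pax7 was called at -0.10 per mm (adjusted p = 0.00205) with both fish and not without them (-0.05, adjusted p = 0.66). In the same 2 fish the other members were low. In medaka7 crhbp was at 54.1, oacyl at 125.6 and pcsk2 at 113 CPM, and in medaka26 they were at 124.7, 362 and 462 CPM.

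**Figure D3:**
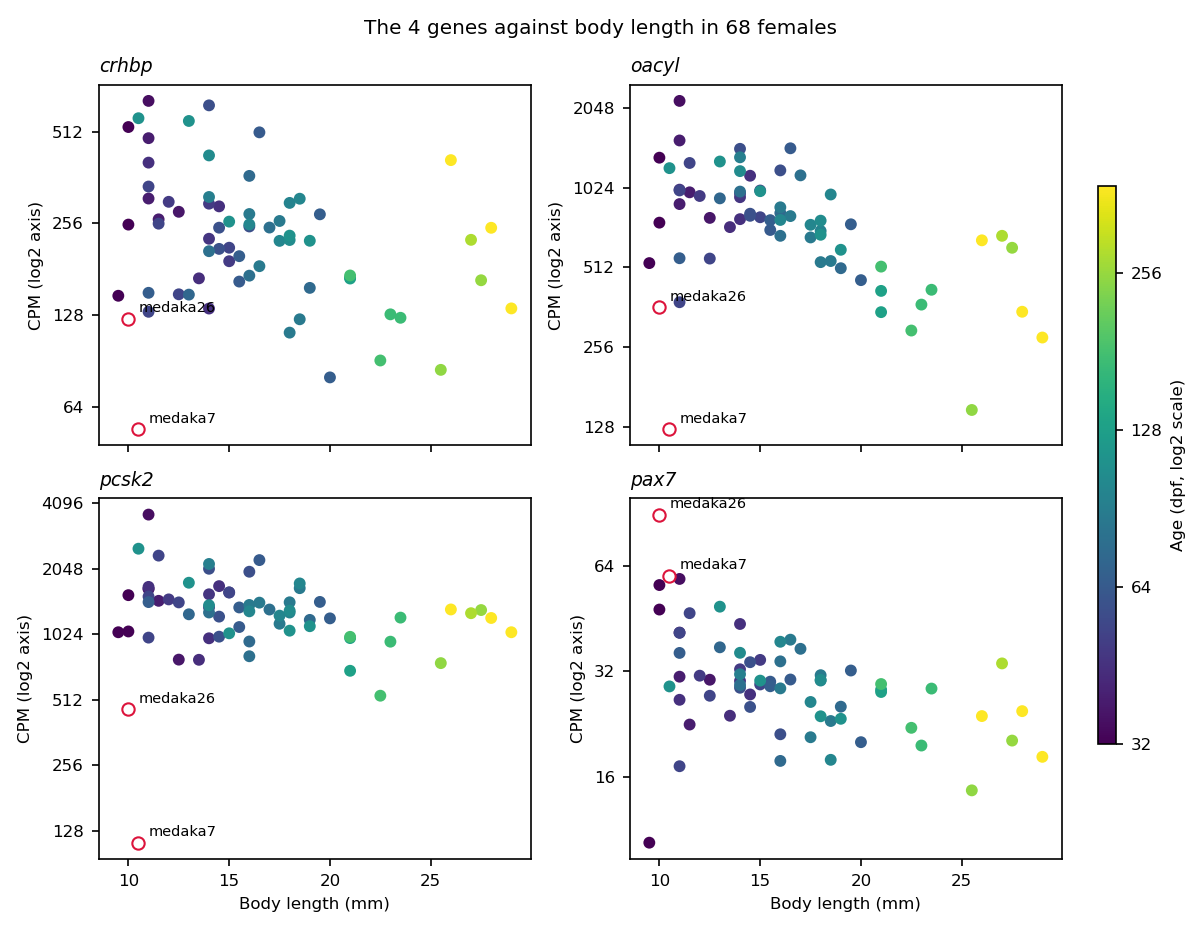
CPM on a log2 axis (y) against body length in mm (x) of the 68 females for each gene, coloured by age in days post fertilization, with the 2 libraries under 10% hormone genes as open red circles. medaka7 has the lowest crhbp (54.1 CPM), oacyl (125.6 CPM) and pcsk2 (113 CPM) of all females, while the highest pax7 (89.8 CPM) is that of medaka26.

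Over the 68 females, crhbp, oacyl and pcsk2 moved together. In log2(CPM + 1) Pearson's r was 0.83 for crhbp and oacyl, 0.77 for oacyl and pcsk2 and 0.67 for crhbp and pcsk2, and Spearman's rho was 0.80, 0.73 and 0.61 (permutation tests, p = 1e-05 for each, the smallest that 100000 permutations can give, and 3e-05 for r and 4e-05 for rho after adjustment over the 12 pairs of both sexes). Without the 2 fish farthest from the median of the first gene the r of these pairs was 0.78, 0.73 and 0.59. pax7 was less tied to them, with r of 0.28 to oacyl (permutation p = 0.0192, adjusted 0.033), 0.21 to crhbp (0.0822, adjusted 0.0987) and -0.03 to pcsk2 (0.769), and rho of 0.42 (permutation p = 0.00041), 0.25 (0.0383) and 0.24 (0.0442), of which only the rho with oacyl passed after adjustment. On the TMM scale r was 0.41 to oacyl, 0.34 to crhbp (adjusted permutation p = 0.00575) and 0.05 to pcsk2, and on CPM outside the 8 hormone genes it was 0.38, 0.30 (adjusted 0.0141) and 0.07, so that crhbp and pax7 passed on both.

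For pcsk2 and pax7, the 2 fish farthest from the median were medaka7 and medaka26, and without them r was 0.40 (permutation p = 0.00092). Leaving out these same libraries, r was 0.59 for oacyl and pax7 and 0.44 for crhbp and pax7, still below the 0.79, 0.72 and 0.62 of the other pairs in those 66 females, a difference that was not tested. In deviations from the mean of the fish's own age group r was 0.84 for crhbp and oacyl, 0.81 for oacyl and pcsk2 and 0.64 for crhbp and pcsk2, and -0.09 to 0.20 for the 3 pairs with pax7, or 0.35 to 0.57 without the 2 fish. The first principal component of the 4 genes held 64.1% of their variance in the 68 females, and 70.3% without the 2 fish.

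In the 16 males, too, the 3 pairs without pax7 had the highest r. It was 0.95 for oacyl and pcsk2 (permutation p = 1e-05), 0.85 for crhbp and pcsk2 (0.00014) and 0.81 for crhbp and oacyl (0.00043), with rho of 0.91, 0.74 and 0.69 (permutation p = 2e-05, 0.0014 and 0.0036), all passing after adjustment. With pax7, r was 0.54 to oacyl (permutation p = 0.0305), 0.46 to pcsk2 (0.0698) and 0.37 to crhbp (0.151), of which the first passed after adjustment (0.0457), with rho of 0.43, 0.41 and 0.22. The 2 males farthest from the median were medaka125 and medaka135. Without them r was 0.87, 0.65 and 0.52 for the first 3 pairs, of which crhbp and oacyl no longer passed (permutation p = 0.0545, adjusted 0.0727), and 0.03, -0.05 and -0.17 for oacyl, pcsk2 and crhbp with pax7. Without the low-hormone males medaka126 and medaka135 the r with pax7 was 0.57 for oacyl (adjusted permutation p = 0.0514), 0.59 for pcsk2 (0.0465) and 0.37 for crhbp (0.185), and on CPM taken outside the 8 hormone genes it was 0.76, 0.71 and 0.64 and all 3 passed. The relation of pax7 to the others in males thus depended on the fish and the scale used.

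**Figure D4:**
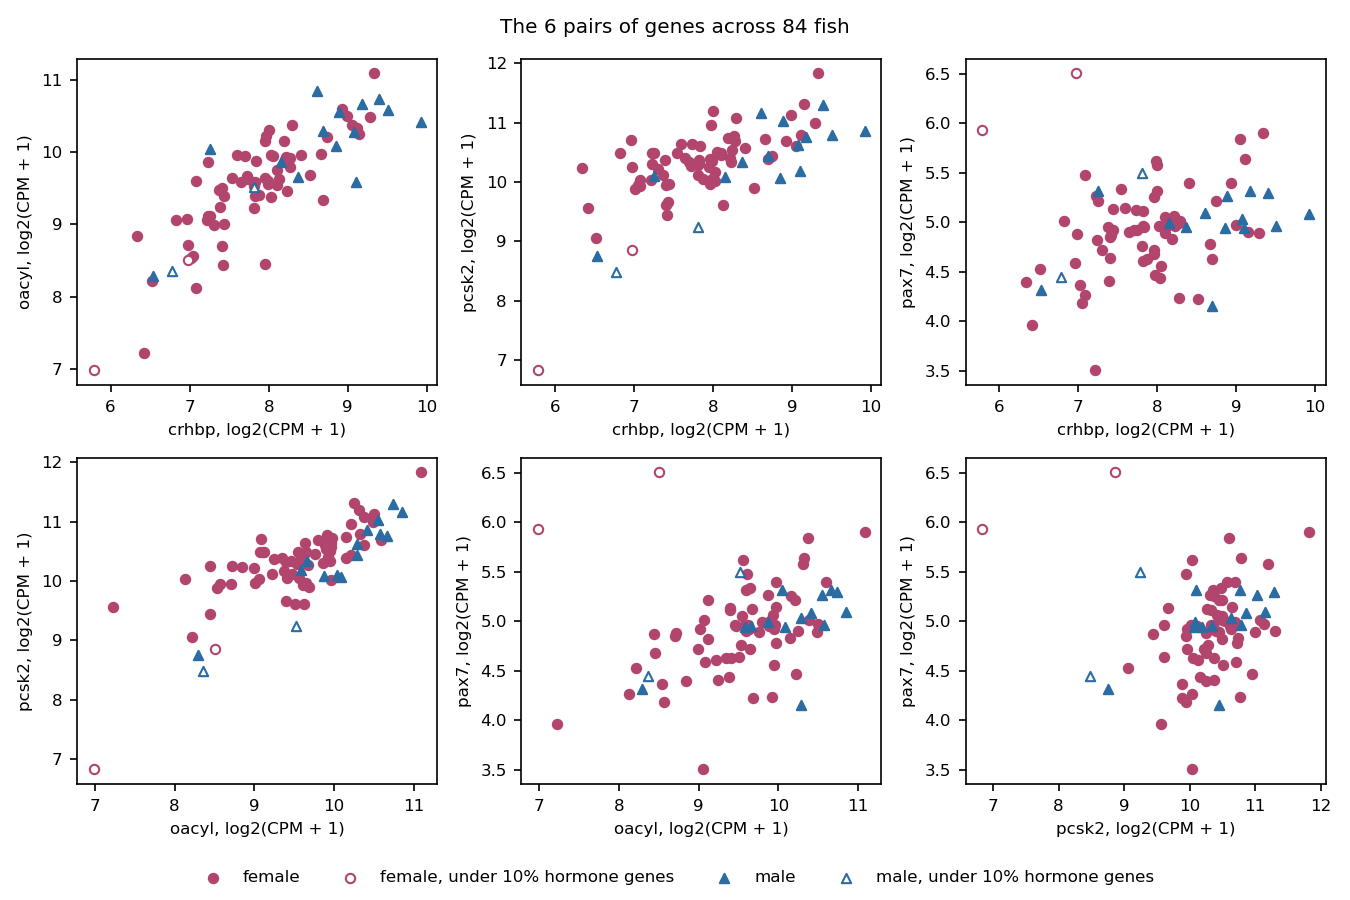
The 6 pairs of genes in log2(CPM + 1), 1 point per fish, females as circles and males as triangles, with libraries under 10% hormone genes open. The points lie along a line for crhbp and oacyl (r = 0.83 in females) and for oacyl and pcsk2 (r = 0.77), while in the 3 panels with pax7 the 2 open circles stand above all others.

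As a ratio, oacyl stood at a median of 3.20 times the counts of crhbp in the females, from 1.41 to 6.24 times. Its median was lowest in the oldest fish of each sex, at 1.57 times in the females of 375 dpf (n = 3) and 1.86 times in the males of 134 dpf (n = 4). The log2 ratio of oacyl to crhbp had an SD of 0.433 over the females, smaller than that of either gene (0.740 and 0.728), and that of oacyl to pcsk2 had one of 0.474. Ratios to pax7 had SDs of 0.760 to 0.822, which without medaka7 and medaka26 were 0.629 for crhbp, 0.544 for oacyl and 0.489 for pcsk2, against 0.435 for oacyl to crhbp, 0.463 for oacyl to pcsk2 and 0.538 for crhbp to pcsk2. For each 1000 counts of pcsk2 the females had a median of 21.7 counts of pax7, against 194 in medaka26 and 533 in medaka7. Each of these 2 fish had more pax7 and less pcsk2 than the median female, so the ratio moved from both sides.

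All 4 members were set against pomca, which melanotropes share with corticotropes. In females r with pomca was 0.91 for oacyl, 0.81 for pcsk2 and 0.77 for crhbp (permutation p = 1e-05 and adjusted 9.33e-05 for each), with rho of 0.85, 0.72 and 0.69, while for pax7 it was 0.18 (rho 0.29, permutation p = 0.15, adjusted 0.299), or 0.48 without medaka7 and medaka26. Without these fish r was 0.89 for oacyl, 0.74 for pcsk2 and 0.73 for crhbp. In males it was 0.94 for crhbp, 0.94 for pcsk2 and 0.89 for oacyl (permutation p = 1e-05 and adjusted 9.33e-05 for each, rho 0.85, 0.93 and 0.91), and 0.33 for pax7 (rho 0.36, permutation p = 0.206, adjusted 0.384). The relation of oacyl to pomca was tight enough that their log2 ratio had an SD of 0.330 over the females, against 0.774 for pomca itself. pomca and the members were measured in the same libraries, so depth and composition are shared by both sides.

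Of the 56 relations to other measures that were computed over both sexes, pax7 was tied in females to 3 measures of library composition and quality. In females its r was -0.52 with the share of counts in hormone genes other than pomca (permutation p = 4e-05, adjusted 0.00028), -0.47 with the RNA integrity number (n = 57, 0.00025, adjusted 0.0016) and -0.40 with total counts (0.00087, adjusted 0.00443), and rho was -0.40, -0.41 and -0.33. Without the 2 fish these were -0.40, -0.40 and -0.34. crhbp, oacyl and pcsk2 passed in none of these 3 relations after adjustment, although with the RNA integrity number the r of crhbp and oacyl was -0.15 and -0.12 with all fish and -0.33 and -0.33 without the 2. oacyl and pcsk2 fell instead where CD74 was high (r = -0.55, adjusted permutation p = 0.00016, and r = -0.43, 0.00213, with rho of -0.48 and -0.49), and r was -0.48 and -0.30 without the 2 fish. CD74 itself rose with age in females, by 0.97 in log2 per doubling in the joint fit with length (edgeR, adjusted p = 2.09e-05). In the 16 males r with CD74 was -0.71 for oacyl and -0.65 for pcsk2 (adjusted permutation p = 0.0249 and 0.0374). Their rho of -0.27 and -0.25 did not pass. Without medaka125 and medaka135, the males farthest from the median of CD74, r was 0.05 and 0.23. The relations to CD74 were not adjusted for age. Other relations of pax7 in females, with the number of genes detected at equal depth (r = 0.07) and with globin (0.06), did not pass. In the 16 males the r of pax7 was -0.01 with the other hormone genes, 0.04 with the RNA integrity number and -0.08 with total counts, and none passed. For RNA quality, the joint fit of length and age in females was also run with the RNA integrity number as a covariate. It could hold only the 57 females with such a number. It called 384 genes with length and 39 with age, against 1157 and 388 in the fit of all 68 females without the covariate. The covariate and the smaller number of fish thus cannot be told apart in these counts. The part of RNA quality in the relations above, and that of other cells, was not tested.

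**Figure D5:**
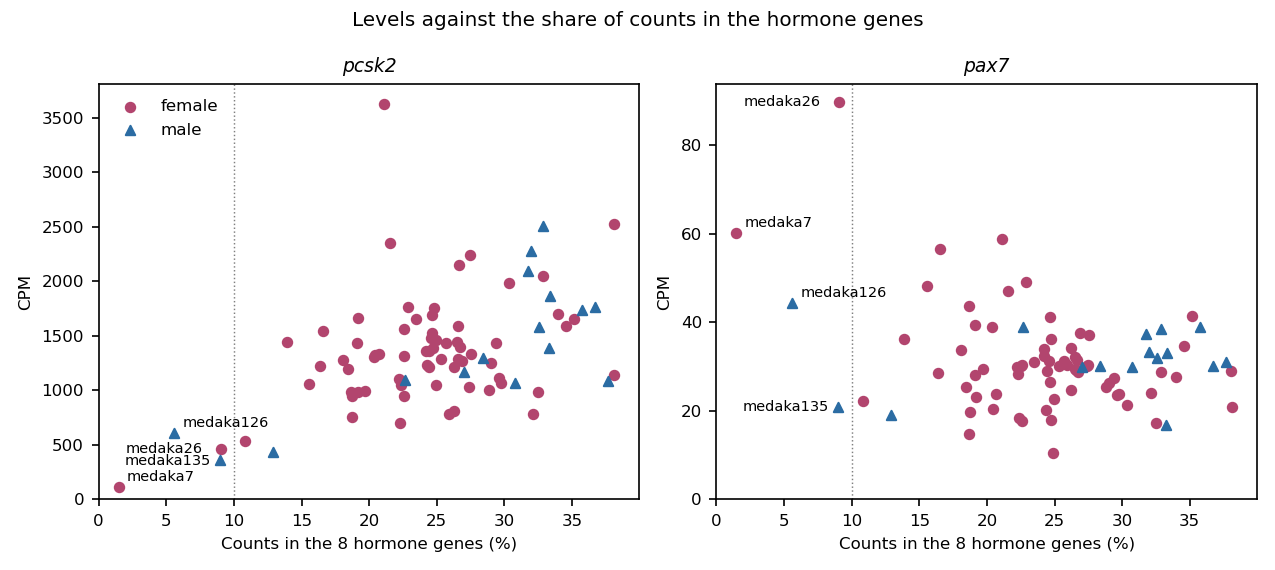
CPM (y axis) of pcsk2 (left) and pax7 (right) against the percent of counts in the 8 hormone genes (x axis), 1 point per fish, females as circles and males as triangles, with the 10% line dotted. Left of the line pcsk2 lies at 113 to 607 CPM in all 4 fish, while pax7 there spans 20.8 (medaka135) to 89.8 CPM (medaka26).

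Among all 20834 genes with a mean of at least 1 CPM in the females, ranked by Spearman's rho over the 68 females, the members found each other near the top, except for pax7. The gene most like crhbp was oacyl, and the gene most like oacyl was pomca, with crhbp at place 2. pcsk2 stood at place 5 for both, and oacyl at place 2 for pcsk2. pax7 was at place 130 for crhbp, 76 for oacyl and 1666 for pcsk2, and from its own side the highest member, oacyl, was at place 716. Without medaka7 and medaka26 pax7 rose to place 45 for crhbp, 21 for oacyl and 474 for pcsk2, and oacyl to place 22 for pax7. In deviations from the age-group means of all 68 females pax7 instead fell to place 165 for crhbp, 87 for oacyl and 7666 for pcsk2. From its own side oacyl fell to place 4743 there. By the mean rho with all 4 members, the most similar genes were pomca (0.64) and the unnamed entries ENSORLG00000005962 (0.60) and ENSORLG00000026115 (0.57). Among the 13 genes of other cells the highest were smtla (0.31), gnrhr2 (0.21), prl (0.09), gb (0.08) and hbbe2 (0.04), and the lowest were cga (-0.38), CD74 (-0.36) and lhb (-0.35).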

How the data were processed

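Whole-number read counts per gene of 84 single pituitaries were used as deposited. The authors made Smart-SEQ HT and Nextera XT libraries, mapped the reads to the Hd-rR assembly, with gene models of Ensembl that they had partly adjusted, and counted reads per gene. STAR 2.7.6a, SAMtools 1.10 and HTSeq 0.11.2 stand in the submitters' processing notes. The paper states a counting mode for its single-cell reads, and no source used here gives the mode or the strand for these libraries, so overlapping genes cannot be told apart. Whether any member has a near-identical copy in the genome was not checked, since no sequence was at hand. Reads carry no molecular identifiers.

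Counts were tested with edgeR 4.0.16 in R 4.3.3 (TMM, filterByExpr, robust quasi-likelihood, Benjamini-Hochberg over all genes tested), with DESeq2 1.42.0 as an alternative. Standard errors were derived from the F statistic. CPM, correlations and permutation tests used Python 3.11.15 (numpy 2.4.6, scipy 1.17.1, pandas 2.3.3) and plots matplotlib 3.10.9. Scripts were tested on simulated data with 200 changed genes. Each fish is 1 replicate. The paper states no test for these libraries.

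The genes named are the 4 members, pomca, genes of other cells, and by likeness up to 6 with a symbol and 2 without. The genes of other cells were given by the paper, except CD74 and hbbe2, which its text does not name. Members and lists were chosen with earlier results of these data known. A list of 21 pathway symbols could be paired with 0 entries, since the reference table gave 0 Ensembl identifiers, and was not tested. Alternatives were other tests, scalings, filters, covariates and fish left out. Removing age-group means and the libraries with few hormone counts together was chosen after seeing the data.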

Additional observations from a re-analysis of the deposited data

Results flagged for a closer look

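Of 48 combinations of a gene and a group of 4 to 10 fish, 4 held a fish far from the others by Dixon's criterion, and chance alone gives about 1 in 20. In the females of 58 to 59 dpf medaka76 was at 624 CPM of crhbp, with the next at 249.9 CPM. In the females of 64 to 74 dpf medaka82 was at 1441 CPM of oacyl, with the next at 933 CPM. In the same group medaka26 was at 89.8 CPM of pax7, with the next at 37.5 CPM, and in the females of 79 to 92 dpf medaka7 was at 60.1 CPM of pax7, with the next at 39.4 CPM. medaka26 and medaka7 were 2 of the 4 libraries with few hormone counts. The causes were not tested.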

How the results depend on the processing

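For the comparisons, 344 values of the members were recomputed under other settings, correlations and leaving out single fish aside. Of these, 315 kept their side of the threshold and their direction, 7 lost a call, 15 gained one and 7 changed direction. A change of sign counts only for a called value or one that moved by more than its standard error. Most of the results were not called as reported, and for these staying uncalled counts as kept. Among females of 64 to 74 dpf, the 1 member called became 2 with DESeq2, without the 8 hormone genes, with all 84 libraries in 1 fit or with an RNA integrity number of 8 or more, 4 without the low-hormone libraries, and 0 with body length as a covariate or on plain CPM. There, pcsk2 turned to 0.037 and pax7 to 0.23 on plain CPM. In adults the 3 called became 1 with body length as a covariate. With body length the 1 called became 4 with length alone and 0 without the low-hormone libraries, within age groups or not, and with age 0 became 4 with age alone, where crhbp and pax7 turned to -0.27 and -0.27. The interaction went to 2 with DESeq2. The 4 pairs called in males became 6 on CPM outside the 8 hormone genes, 3 in deviations from group means, 2 in these deviations without low-hormone libraries and 2 without the farthest fish, and the 4 in females became 5 on the TMM scale or outside the hormone genes, 3 in deviations and 6 without the low-hormone libraries or the farthest fish. Other turned directions were pcsk2 at 37 to 39 dpf with body length (-0.33), pax7 in males of 134 against 70 dpf on plain CPM (0.30), pcsk2 with length within age groups (0.027), pcsk2 and pax7 in females (0.40 without low-hormone libraries, 0.35 in deviations without them, 0.40 without the 2 farthest fish), and crhbp and pax7 (-0.17) and pcsk2 and pax7 (-0.047) in males without the 2 farthest fish. The causes were not tested. Leaving out 1 fish gave 2 to 3 members called in adults, 0 to 3 at 64 to 74 dpf, where only males were left out, 0 to 1 in males of 134 against 38 dpf and 0 to 3 for the interaction, and moved crhbp at 37 to 39 dpf between -0.39 and 1.13. Over all genes the calls ranged, across all settings, from 0 to 2855 at 37 to 39 dpf (0 as reported), 0 to 75 at 58 to 59 dpf (6), 2486 to 6246 at 64 to 74 dpf (3756), 10 to 332 in adults (16 higher and 87 lower), 0 to 2701 in males of 134 against 38 dpf (456), 0 to 59, 0 to 5 and 0 to 1109 in the other steps between male ages (0 each), 17 to 6982 with length (1157), 3 to 6440 with age (388) and 0 to 485 for the interaction (0). No paired analysis was possible because each library came from a different fish, of a single sex and age. All members had counts in every library. The replicates of an age may share a clutch and a tank.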
